A study of Homo sapiens with 11 samples.

Results

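Desmosome components were followed in 2 human epithelial lines exposed to nickel. The members were 10 genes taken by symbol, DSP, DSC2, DSC3, DSG2, DSG3, PKP1, PKP2, PKP3, JUP and PPL. All 10 were listed among the 28252 genes of the RT4 RNA-Seq and among the 26237 gene promoters of the BEAS-2B H3K4me3 ChIP-Seq. RT4 is a line from a non-invasive human bladder tumour, and 2 libraries each were analysed of untreated cells (UT), of cells kept for 6 weeks in 100 μM NiCl2 (Ni-E), and of cells washed and then grown for 2 weeks without nickel (Ni-W). BEAS-2B is an immortalized line of human bronchial epithelium, and 1 H3K4me3 library was analysed for each condition. Its Ni-W cells had the same exposure, were grown out from 1 colony, and had been without nickel for more than 6 months, so that time and clone cannot be told apart from the condition.

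Desmosomes are patches on the sides of epithelial cells that fasten the keratin filaments of neighbouring cells to each other. Desmogleins (DSG) and desmocollins (DSC), which are cadherins, span the membrane and bind those of the next cell. Inside the cell they hold plakoglobin (JUP) and the plakophilins (PKP), and these in turn hold desmoplakin (DSP), the plakin that reaches the keratins. H3K4me3, the other measurement, is a histone mark found at the start sites of active genes.

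The RT4 libraries held 17075833 to 27736454 estimated counts, and replicate 2 was the deeper library in every condition. Replicates 1 and 2, named from the presence of a suffix in the sample titles, also differed in level. TPM (a share of all transcripts, scaled for gene length and for depth) was higher in replicate 1 of every condition for DSP, DSG2, PKP1, PKP2 and PPL, by 1.51 times (DSP in Ni-E cells) to 3.39 times (PKP2 in Ni-W cells). For JUP and PKP3, whose modelled transcripts of 3431 and 2817 bases are the shortest of the 10 members, the ratio was 1.02 to 1.14. DSC2, the longest at 12350 bases, had few counts and a ratio of 0.95 in UT, 2.0 in Ni-E and 2.38 in Ni-W cells. EVPL, a desmosome gene outside the members, was lower in replicate 1 of every condition (142.7 against 172.2 TPM in UT cells). A part of transcript length in these differences was not tested. For this reason each test is given without and with the replicate number as a block. RT4 cells expressed all 10 urothelial and epithelial markers examined at a mean of at least 1 TPM.

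Seen as levels in RT4 cells, JUP stood far above the other members and DSG2 was nearly the only desmosomal cadherin. JUP gave 73.1% to 81.1% of the summed TPM of the 10 members in the 6 libraries. DSG2 gave 98.7% to 99.95% of the summed TPM of the 4 cadherins, and PKP3 gave 76.2% to 90.5% of that of the plakophilins. By the mean TPM over the 6 libraries the order was JUP (554), PKP3 (72.3), DSP (29.4), DSG2 (28.9), PPL (17.97), PKP2 (11.99), PKP1 (1.48) and DSC2 (0.122), with DSC3 and DSG3 at 0. The ranges of JUP and PKP3 overlapped neither each other nor those of the members below them. DSP (16.8 to 48.9), DSG2 (17.3 to 52.1), PPL (8.78 to 29.6) and PKP2 (6.03 to 20.4) overlapped, so that their order is not beyond their spread.

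**Figure D1:**
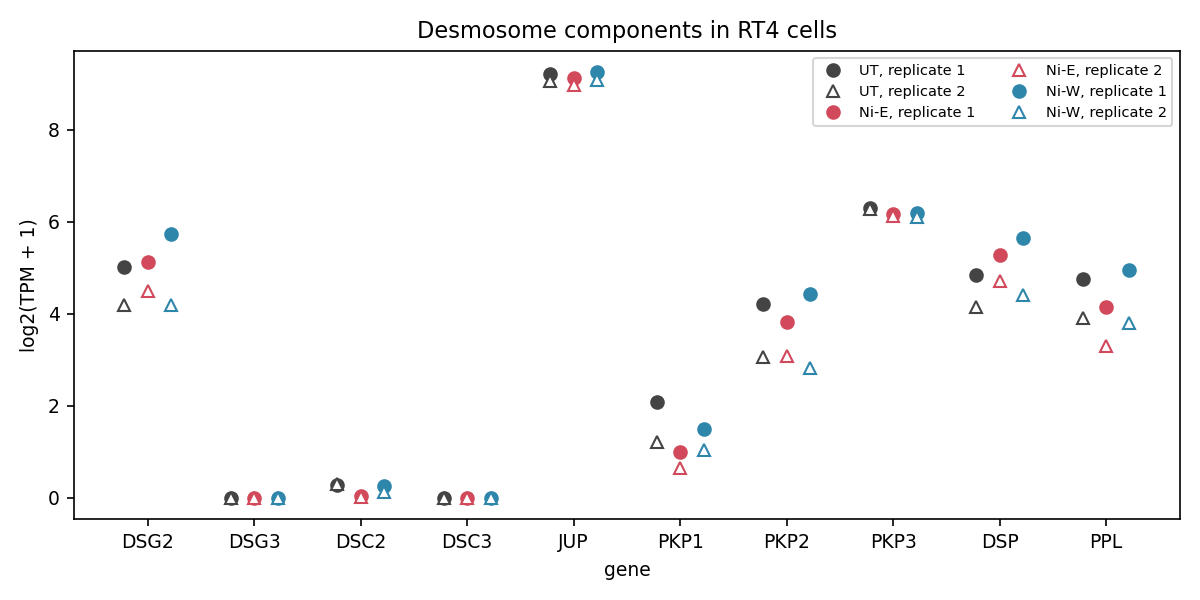
Level of the 10 desmosome components in RT4 cells as log2(TPM + 1), by gene on the horizontal axis. Each point is 1 library, coloured by condition, with filled circles for replicate 1 and open triangles for replicate 2. JUP lies highest, DSC3 and DSG3 lie at 0 in all 6 libraries, and replicate 1 lies above replicate 2 for DSG2, PKP1, PKP2, DSP and PPL.

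To ask which components differed under nickel, Ni-E cells were compared with UT cells. DSC2, a desmocollin of simple and stratified epithelia, was lower in Ni-E cells, from a very low level. With the replicate block, PKP1, the plakophilin best known from the upper epidermis, and PPL, periplakin, were lower as well. DSG2, JUP, PKP2 and PKP3 passed in neither fit. Without the block, 1 of the 8 members tested was called, that is, changed at least 1.5-fold with a Benjamini-Hochberg adjusted p below 0.05 in edgeR's quasi-likelihood test, where 2.17% of all 14502 genes tested were called and 0.71% were called lower. DESeq2 called DSC2 too, where it called 4.42% of the genes to which it gave an adjusted p. With the block, 3 of 8 were called, all lower, where 12.6% of all genes were called and 5% were called lower. DSC2 is among the members called in each of these fits. Nothing is read from DSC2 against these shares, for the reason given below with its counts. The members' median log2 fold change was -0.20 without the block and -0.17 with it, against -0.01 and -0.0046 over all genes tested. In CPM (counts scaled for depth and by a TMM factor of each library, 0.977 to 1.03) both Ni-E libraries lay below both UT libraries for 3 of the 8 members. These were DSC2, PKP1 and JUP, and the same held for 19.3% of all genes tested. DSC2 is counted here as a description only.

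DSC2 stood at 0.21 and 0.22 TPM in UT cells, 0.02 and 0.01 TPM in Ni-E cells, and 0.19 and 0.08 TPM in Ni-W cells, for replicates 1 and 2. In counts these were 25 and 44 in UT cells, 3 and 2 in Ni-E cells, and 20 and 17 in Ni-W cells. Both Ni-E libraries lay below the other 4, which were themselves low next to DSG2. DSC2 was admitted to the test by its counts in UT and Ni-W cells, and not by those in Ni-E cells. A gene admitted in this way had to be lower in Ni-E cells. Its calls in the comparisons with Ni-E cells are therefore a description, and nothing is read from DSC2 against the shares of all genes called. The log2 fold change of Ni-E against UT cells was -3.72 (SE 0.59, adjusted p = 0.0451) without the block and -3.75 (SE 0.58, adjusted p = 0.00138) with it. Since the Ni-E libraries held no more than 3 counts each, the ratio was also taken from the summed counts over the total counts, where DSC2 was 14.5-fold lower in Ni-E cells (95% interval 5.92 to 46.1, counting error only). The call without the block was lost when any 1 of the 4 UT and Ni-E libraries was left out (adjusted p = 0.152, 0.221, 0.259 and 0.374). The log2 fold change of DSC2 in these 4 fits was -4.30 to -3.17, and they called 0 to 44 of all genes, against 314 with all libraries. At its 5′ end DSC2 overlaps DSCAS, a transcript of the opposite strand, which was listed at 0 in all 6 libraries. The library kit is not stated to keep the strand.

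Against Ni-E cells, DSC2 was higher in Ni-W cells by a log2 fold change of 2.91 with the block (SE 0.64, adjusted p = 0.0259), but it was not called without the block (2.92, SE 0.61, adjusted p = 0.344). The ratio from the summed counts was 7.81 (95% interval 3.06 to 25.4). Between Ni-W and UT cells, the log2 fold change of DSC2 was -0.79 (SE 0.46, adjusted p = 0.831) without the block and -0.84 (SE 0.41, adjusted p = 0.228) with it, which was not called.

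DSG2, the desmoglein found in all tissues with desmosomes, stood at 31.5 and 17.3 TPM in UT cells, 33.7 and 21.7 TPM in Ni-E cells, and 52.1 and 17.3 TPM in Ni-W cells. The 3 conditions overlapped, and the libraries of each condition differed by more than the condition means did. The log2 fold change was 0.19 (SE 0.44, adjusted p = 0.997) for Ni-E against UT cells and 0.40 (SE 0.44, adjusted p = 0.9995) for Ni-W against UT cells. With the block it was 0.20 (adjusted p = 0.428) and 0.33 (adjusted p = 0.231). Within replicate 1, Ni-W was 1.53 times UT in CPM, and within replicate 2 it was 1.005 times, so that the rise in Ni-W cells was seen in 1 replicate number of 2. DSC3 and DSG3, the cadherins of the basal layers of stratified epithelium, had no count in any RT4 library. A count of 0 allows up to 0.108 to 0.176 CPM in these libraries, taken as 3 counts each and here scaled for depth alone.

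Among the armadillo proteins, which bind the cadherin tails, PKP1 differed most. PKP1 stood at 3.20 and 1.31 TPM in UT cells, 0.98 and 0.57 TPM in Ni-E cells, and 1.80 and 1.04 TPM in Ni-W cells. Both Ni-E libraries were lower than all other libraries, while UT and Ni-W cells overlapped. In Ni-E against UT cells, the log2 fold change was -1.52 (SE 0.45, adjusted p = 0.207) without the block, which was not called, and -1.48 (SE 0.24, adjusted p = 0.00169) with it. Within the replicate numbers, PKP1 was 3.18-fold and 2.397-fold lower in Ni-E cells. In Ni-W against UT cells it was -0.71 (SE 0.43, adjusted p = 0.869) without the block and -0.64 (SE 0.22, adjusted p = 0.0976) with it. In Ni-W against Ni-E cells it was 0.82 (SE 0.45, adjusted p = 0.9999) and 0.84 (SE 0.25, adjusted p = 0.0836), so that PKP1 was not called in either comparison of Ni-W cells.

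PKP2, the plakophilin shared by epithelia and heart, stood at 17.6 and 7.30 TPM in UT cells, 13.1 and 7.48 TPM in Ni-E cells, and 20.4 and 6.03 TPM in Ni-W cells. All conditions overlapped, and replicate 1 was the higher library in each. PKP3, the plakophilin found in most epithelia, stood at 78.1 and 76.3 TPM in UT cells, 71.2 and 69.0 TPM in Ni-E cells, and 71.3 and 67.7 TPM in Ni-W cells. In TPM the 2 UT libraries were the highest, but in CPM, the scale of the test, they overlapped both other conditions. JUP, which serves adherens junctions as well as desmosomes, stood at 595 and 531 TPM in UT cells, 554 and 499 TPM in Ni-E cells, and 608 and 536 TPM in Ni-W cells. The conditions of JUP overlapped in TPM, while in CPM both Ni-E libraries lay below both UT libraries. None of PKP2, PKP3 and JUP was called in any contrast in either fit, and their log2 fold changes with the block lay between -0.20 (PKP3, Ni-W against UT cells) and 0.13 (PKP2, Ni-W against Ni-E cells).

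Of the plakins, which join the plaque to intermediate filaments, PPL was lower in Ni-E cells with the block and DSP was not. PPL stood at 25.9 and 13.9 TPM in UT cells, 16.7 and 8.78 TPM in Ni-E cells, and 29.6 and 12.9 TPM in Ni-W cells. The conditions overlapped, but within each replicate number the Ni-E library was the lowest. The log2 fold change of Ni-E against UT cells was -0.64 (SE 0.41, adjusted p = 0.724) without the block, which was not called, and -0.66 (SE 0.11, adjusted p = 0.00243) with it. Within the replicate numbers, PPL was 1.51-fold and 1.65-fold lower in Ni-E than in UT cells. In Ni-W against Ni-E cells it was 0.66 (SE 0.41, adjusted p = 0.9999) and, with the block, 0.65 (SE 0.11, adjusted p = 0.00753), which was called higher. Against UT cells, PPL in Ni-W cells was at 0.01 (SE 0.41) without the block and -0.0097 (SE 0.11) with it, with an adjusted p of 0.9995 and 0.970.

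DSP stood at 27.7 and 16.8 TPM in UT cells, 37.8 and 25.1 TPM in Ni-E cells, and 48.9 and 20.1 TPM in Ni-W cells. Conditions overlapped, and in both replicate numbers the UT library was the lowest. The log2 fold change with the block was 0.52 (SE 0.13, adjusted p = 0.0184) in Ni-E and 0.51 (SE 0.13, adjusted p = 0.0282) in Ni-W against UT cells. These 2 adjusted p were below 0.05, but the changes were under 1.5-fold and were not called. Without the block the log2 fold changes were 0.52 (SE 0.40, adjusted p = 0.838) and 0.57 (SE 0.41, adjusted p = 0.9502).

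**Figure D2:**
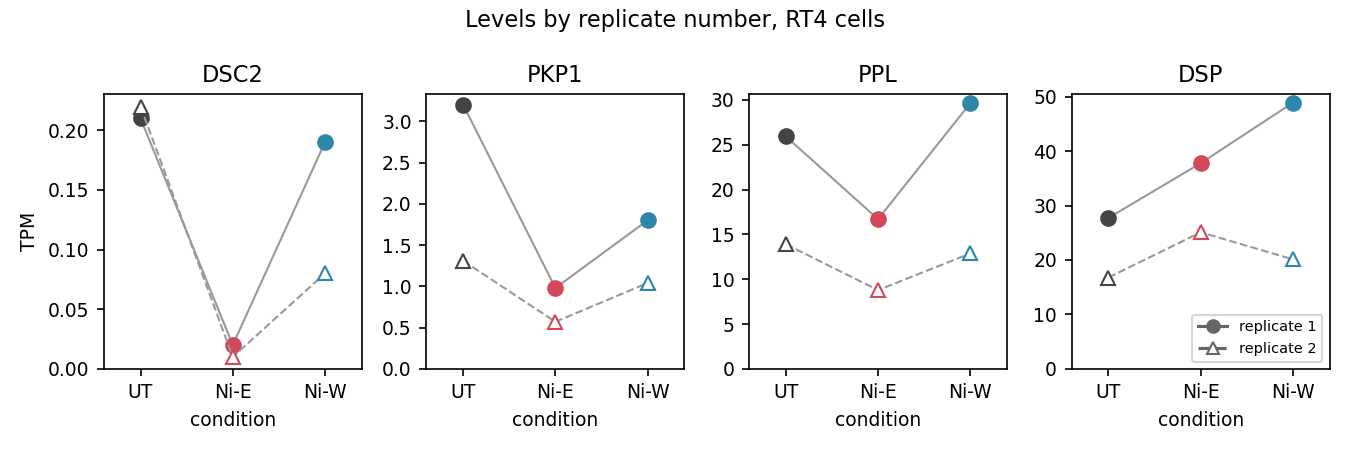
TPM of DSC2, PKP1, PPL and DSP in RT4 cells by condition, with lines joining the libraries of the same replicate number (circles and solid line, replicate 1; triangles and dashed line, replicate 2). The 4 panels have their own vertical axes, each from 0. In both replicate numbers DSC2, PKP1 and PPL were lowest in Ni-E cells, and DSP was lowest in UT cells.

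Over the 8 members tested, no gene was called in Ni-W against UT cells in either fit. The background was 0.6% of all genes without the block and 8.57% with it. No member had an unadjusted p below 0.05 without the block, as 9.12% of all genes had, and DESeq2 called 0 members and 2.94% of genes. In Ni-W against Ni-E cells edgeR called 0 members without the block, where 0% of all genes were called. There 1 member, DSC2, had an unadjusted p below 0.05, as 5.57% of all genes had, and DESeq2 called 0 members and 0.947% of genes. With the block, 2 of 8 members, DSC2 and PPL, were called higher, where 4.52% of all genes were called and 2.72% were called higher. DSC2 was admitted to the test through UT and Ni-W cells, so that nothing is read from it against these shares. The 3 contrasts share their libraries, so that the fall in Ni-E against UT cells and the rise in Ni-W against Ni-E cells rest on the same 2 Ni-E libraries and are not independent.

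**Figure D3:**
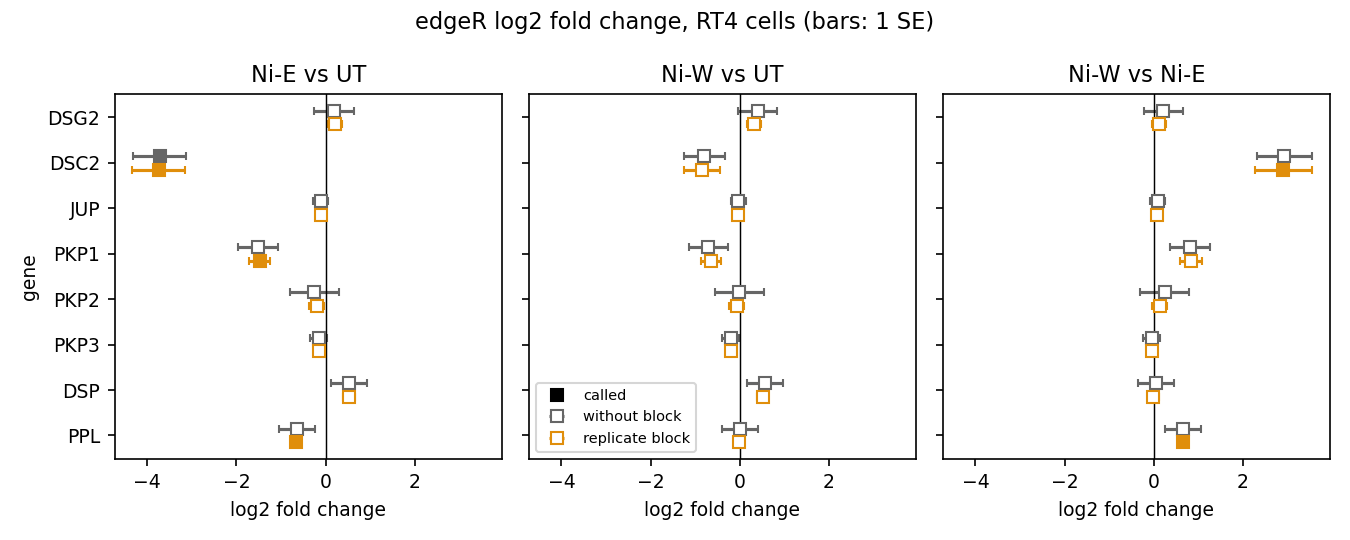
edgeR log2 fold change of the 8 tested desmosome components in the 3 contrasts of RT4 cells, without the block (grey) and with the replicate block (orange). Bars are 1 SE and filled squares were called at 1.5-fold and an adjusted p below 0.05. Without the block only DSC2 in Ni-E against UT cells was called, and with it DSC2, PKP1 and PPL in Ni-E against UT cells and DSC2 and PPL in Ni-W against Ni-E cells.

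Markers of other cells moved as well. The summed TPM of the 8 fibroblast and mesenchymal markers lay between 3.18 and 5.28 in the UT, 9.43 and 15.9 in the Ni-E, and 7.49 and 19.9 in the Ni-W libraries. COL1A2 was at 0 in all libraries, VIM was at most 0.31 TPM, and most of the sum came from FN1. The summed TPM of the 10 urothelial and epithelial markers lay between 4408 and 4858 in the UT, 3902 and 4035 in the Ni-E, and 4354 and 5107 in the Ni-W libraries. Among these, with the block, FOXA1, UPK1B, UPK2 and UPK3A were called lower in Ni-E against UT cells and higher in Ni-W against Ni-E cells, the directions of PPL and DSC2. The 3 endothelial markers summed to at most 1.90 TPM, and of the 4 leukocyte markers only CD68 was above 0.04 TPM. With the block, FN1, COL3A1 and CD68 were called higher in both Ni-E and Ni-W cells against UT cells, and VWF, an endothelial marker, was called lower in Ni-E cells. Of the 8 fibroblast and mesenchymal markers, 3 were tested. The other of these, COL1A1, was not called, with log2 fold changes against UT cells of -0.30 in Ni-E and -0.29 in Ni-W cells. DESeq2 called FN1 and COL3A1 higher in both as well. Over all genes, 12.6% were called with the block in Ni-E and 8.57% in Ni-W against UT cells, and 4.52% in Ni-W against Ni-E cells. The part of these markers in the results on desmosome components was not tested, and in bulk RNA fewer cells that express a gene cannot be told apart from less RNA per cell.

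The remaining genes of desmosomes were followed beside the members. PKP4, a relative of the plakophilins, EVPL, the partner of periplakin, and PERP, a membrane protein of desmosomes, were expressed at 16.5 to 40.9, 135 to 172 and 54.2 to 111 TPM. None of the 3 was called in any contrast in either fit of edgeR, and DESeq2 called 0. PKP4 had an unadjusted p below 0.05 without the block in Ni-W against UT cells, as 9.12% of all genes had. The log2 fold change of PKP4 there was 0.57 (SE 0.22, adjusted p = 0.502). With the block PKP4 was at 0.56 (SE 0.11, adjusted p = 0.0072) in Ni-W and 0.38 (SE 0.11, adjusted p = 0.0355) in Ni-E against UT cells, in both under 1.5-fold. DSG1 was at 0 in all libraries, and DSC1 and DSG4 reached at most 0.06 and 0.02 TPM in 1 library each.

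Of the structures that share parts with desmosomes, the keratins differed most. KRT13 and KRT20, keratins of the intermediate and umbrella layers of urothelium, were called lower in Ni-E against UT cells without the block. They were 2 of 9 keratins tested, and none was called higher. Over all genes tested, 2.17% were called there and 0.71% were called lower, and in Ni-W against UT cells 0.6% were called. KRT20 stood at 11.1 and 11.3 TPM in UT, 0.25 and 0.11 TPM in Ni-E, and 1.59 and 1.37 TPM in Ni-W cells. The counts of KRT20 were 177 and 297 in UT, 4 and 3 in Ni-E, and 22 and 37 in Ni-W cells. KRT20 was admitted to the test by its counts in UT and Ni-W cells, and not by those in Ni-E cells. As with DSC2, its calls in the comparisons with Ni-E cells are a description. Nothing is read from KRT20 there against the shares of all genes called. Against UT cells its log2 fold change was -6.03 in Ni-E cells (SE 0.41, adjusted p = 0.0085) and -2.97 in Ni-W cells (SE 0.32, adjusted p = 0.0294). KRT13 stood at 34.5 and 37.4 TPM in UT, 5.36 and 5.86 TPM in Ni-E, and 6.45 and 6.48 TPM in Ni-W cells, with log2 fold changes of -2.69 (adjusted p = 0.0169) and -2.52 (adjusted p = 0.0294). Both keratins were lower in all 4 nickel libraries than in both UT libraries. With the block, KRT5 and KRT17 were called higher in Ni-E and in Ni-W cells, both against UT cells. KRT6A was called higher in Ni-E against UT cells too, with 0 and 1 counts in UT and 10 and 14 counts in Ni-E cells. KRT6A was admitted to the test by its counts in Ni-E cells alone, so that it had to be higher there. Its call is a description, and nothing is read from KRT6A against the shares of all genes called. KRT20 was called higher in Ni-W than in Ni-E cells. The shares of all genes called with the block were 12.6% in Ni-E and 8.57% in Ni-W against UT cells, and 4.52% in Ni-W against Ni-E cells.

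Of 9 hemidesmosome genes, which anchor cells to the basement membrane, 1 was called without the block in Ni-E against UT cells. This was COL17A1, at 37.4 and 31.3 TPM in UT and 90.2 and 74.7 TPM in Ni-E cells (log2 fold change 1.25, adjusted p = 0.0266). With the block ITGA6 was among those called higher there too, and COL17A1 and LAMA3 among those called higher in Ni-W against UT cells. LAMA3 was also called higher in Ni-W than in Ni-E cells. Over all genes tested, 2.17% were called in Ni-E against UT cells without the block. With it 12.6% were called in Ni-E and 8.57% in Ni-W against UT cells, and 4.52% in Ni-W against Ni-E cells. Of 11 genes of the adherens junction, which shares JUP with the desmosome, 0 were called without the block in any contrast by edgeR or DESeq2. Without it CDH2 had an unadjusted p below 0.05 in both comparisons with UT cells and NECTIN1 in that of Ni-E cells. In Ni-W against UT cells 9.12% of all genes had such a p. The share in Ni-E against UT cells is not given here, so that nothing is read from these p there. CDH2 had only 11 and 12 counts in UT cells. With the block, CDH2 and NECTIN1 in Ni-E and CDH2 in Ni-W cells were called higher than in UT cells. CDH1, the cadherin of epithelial adherens junctions, was not called, at 159 to 331 TPM.

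Among 10 tested genes for transcription factors known for a part in epithelial junctions, SNAI2, a repressor of epithelial cadherins, was called higher without the block in Ni-E against UT cells (log2 fold change 1.13, adjusted p = 0.0460), from 15.1 and 10.9 TPM to 30.3 and 26.7 TPM. Without the block, 2.17% of all genes were called in Ni-E against UT cells. With the block GRHL1, KLF4 and SNAI2 were called higher than UT in both Ni-E and Ni-W cells, and GRHL3 was called lower in Ni-E cells. The shares of all genes called with the block were 12.6% in Ni-E and 8.57% in Ni-W against UT cells. Of 7 genes of desmosome turnover and signalling, 0 were called without the block, with none at an unadjusted p below 0.05 and 0 called by DESeq2. With it TMEM47 was called higher in Ni-E against UT cells.

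The 5 genes whose log2(TPM + 1) ran most like that of DSP over the 6 libraries, among 10324 genes with a mean of at least 5 TPM, were CSNK1G1, CNST, NCAPG2, ERAP1 and FAT1, with Pearson's r of 0.9974 to 0.9992. The points are 6 libraries in 2 replicate numbers, and all 5 genes were higher in replicate 1 of each condition, as DSP was. Among the members, r with DSP was 0.963 for DSG2, 0.831 for PKP2, 0.653 for JUP, 0.633 for PPL and -0.13 for PKP3. DSG2 had a higher r than 94.97% of the genes compared.

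In BEAS-2B cells the members were examined by H3K4me3 within 2 kb on each side of the start site, in RPKM, a read count scaled for the width of the window and the depth of the library. Depth was 28385716 reads in UT, 37493942 in Ni-E and 29933506 in Ni-W cells. Levels have a 95% Wilson interval from the reads, which covers counting error only, and with 1 library a condition no test of the condition was made. For a comparison each level was divided by the median of all promoters in its library. At promoters with at least 1 RPKM in either library, the median of this fold was 1.08 for Ni-E and 0.801 for Ni-W against UT cells, and 0.750 for Ni-W against Ni-E cells. The members are therefore also given relative to these medians. Of 8 bronchial epithelial markers examined in UT cells, KRT8 (7.33 RPKM) and KRT18 (7.26 RPKM) had the most H3K4me3. The others were lower, NKX2-1 at 2.76, EPCAM at 2.21, FOXJ1 at 1.55, CDH1 at 1.02, SFTPC at 0.37 and SCGB1A1 at 0.176 RPKM. RNA of BEAS-2B cells was not analysed here.

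Of the 10 promoters, 6 had 3.83 RPKM or more in every condition, those of DSC3, PKP2, DSP, DSC2, DSG2 and JUP. DSC3 was the highest in UT cells, at 9.35 RPKM (8.81 to 9.93), above 89.6% of promoters. It was followed by PKP2 at 6.22, DSP at 5.73, DSC2 at 5.57, DSG2 at 5.45 and JUP at 5.21 RPKM, whose intervals overlapped from one gene to the next. PKP3 (1.95 RPKM) and PPL (1.01 RPKM) were lower, and PKP1 (0.528 RPKM) and DSG3 (0.335 RPKM) were lowest. The 2 lines differed in order: DSC3 had the highest promoter level here and no count in RT4 cells, and PKP3 was the second of 10 in RT4 cells by TPM and the seventh here by H3K4me3. These are different measurements in different cells, so that the orders are set side by side only.

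**Figure D4:**
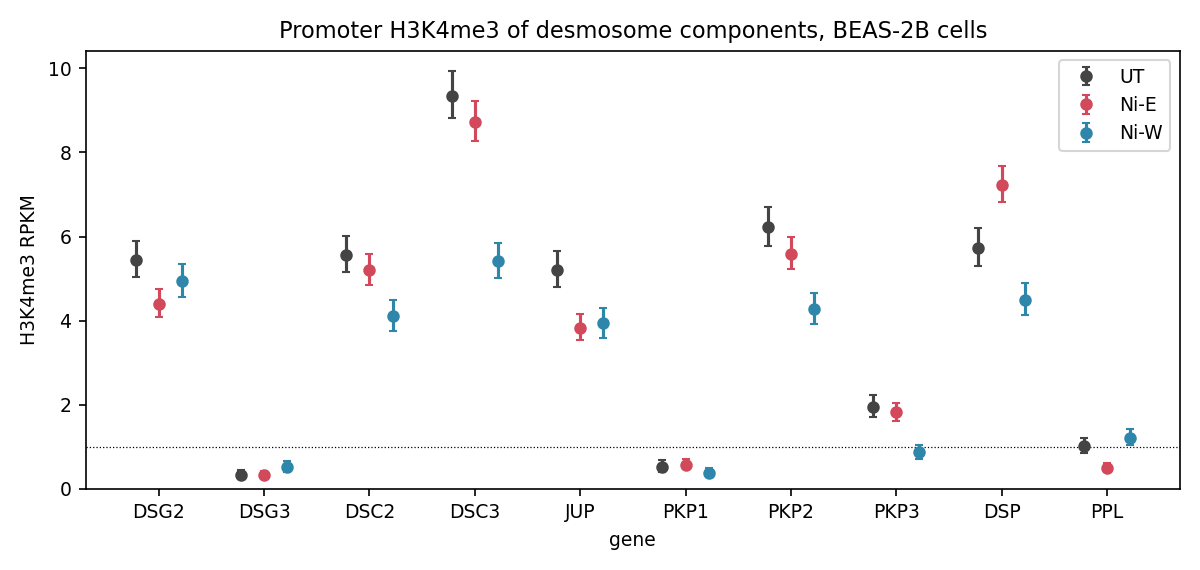
H3K4me3 level in RPKM, on a linear axis from 0, at the promoters of the 10 desmosome components in BEAS-2B cells by condition. Points are single libraries and bars are 95% Wilson intervals from the reads; the dotted line marks 1 RPKM. In these unscaled levels PPL, JUP, DSG2 and DSG3 were lowest in Ni-E cells, and all other members, PKP3 among them, were lowest in Ni-W cells. DSP and PKP1 were highest in Ni-E cells. The median of all promoters was 1.57 RPKM in UT, 1.39 RPKM in Ni-E and 1.12 RPKM in Ni-W cells.

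Among the members, PPL had a lower H3K4me3 level in RPKM in the Ni-E library than in the other 2, as JUP, DSG2 and DSG3 had. DSP had a higher level there, as PKP1 had, and the change of DSP fell short of 1.5-fold. PPL had 1.01 RPKM (115 reads) in UT, 0.493 RPKM (74 reads) in Ni-E and 1.22 RPKM (146 reads) in Ni-W cells. The Ni-E interval (0.393 to 0.619 RPKM) lay below those of UT (0.844 to 1.22) and Ni-W cells (1.04 to 1.43). As a fold of scaled levels, PPL was at 0.550 (0.411 to 0.737) in Ni-E against UT cells. It was at 1.69 (1.32 to 2.15) in Ni-W against UT cells and at 3.06 (2.32 to 4.05) in Ni-W against Ni-E cells. PPL met the minimum of 1 RPKM, set for a comparison, through the UT and Ni-W libraries and not through the Ni-E library. A member admitted in this way had to be lower in Ni-E cells, so that its pass in the 2 comparisons with Ni-E cells is a description. Promoters of a like level in the library outside each comparison had median folds of 1.03, 1.21 and 0.944. Without scaling, PPL in Ni-W against UT cells was at 1.20 (0.942 to 1.54), under 1.5-fold.

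PPL was the only 1 of the 8 members with at least 1 RPKM in either library to pass 1.5-fold in Ni-E against UT cells, where 0.567% of promoters passed lower and 0.847% higher, and nothing is read from PPL against these shares. DSP was next to it, with 5.73 RPKM (5.31 to 6.19) in UT, 7.24 RPKM (6.82 to 7.68) in Ni-E and 4.49 RPKM (4.13 to 4.89) in Ni-W cells. Its fold in Ni-E against UT cells was 1.43 (1.29 to 1.57), and 98.8% of promoters had a lower fold. JUP fell short of 1.5-fold in the other direction, at 0.831 (0.741 to 0.932), with 5.21 RPKM in UT, 3.83 RPKM in Ni-E and 3.93 RPKM in Ni-W cells. The folds of DSC2, DSC3, PKP2 and PKP3 were 1.02 to 1.06, and all 4 intervals held both 1 and the median of all promoters.

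In Ni-W against UT cells, 2 of 8 members passed 1.5-fold, PPL higher and PKP3 lower, where 4.36% of promoters passed higher and 18.4% lower. PKP3 had 1.95 RPKM (1.71 to 2.22) in UT, 1.82 RPKM (1.62 to 2.05) in Ni-E and 0.869 RPKM (0.717 to 1.05) in Ni-W cells. It met the minimum of 1 RPKM through the UT and Ni-E libraries and not through the Ni-W library. A member admitted in this way had to be lower in RPKM in Ni-W cells. The pass of PKP3 in both comparisons of Ni-W cells is therefore a description, and nothing is read from it against the shares of promoters. Its fold was 0.626 (0.496 to 0.790) against UT and 0.592 (0.472 to 0.742) against Ni-E cells, and relative to the median promoter these were 0.781 and 0.789. With TMM factors on the reads, or with scaling to the median of the promoters at 1 RPKM or more, PKP3 did not pass 1.5-fold. In Ni-W against Ni-E cells the same 2 members passed, PPL higher and PKP3 lower, where 4.04% of promoters passed higher and 30.5% lower.

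DSG2 had 5.45 RPKM (5.04 to 5.90) in UT, 4.41 RPKM (4.08 to 4.76) in Ni-E and 4.94 RPKM (4.55 to 5.35) in Ni-W cells. Its fold was 0.914 (0.819 to 1.02) in Ni-E against UT cells, 1.27 (1.13 to 1.42) in Ni-W against UT and 1.39 (1.24 to 1.55) against Ni-E cells, or 1.58 and 1.85 relative to the median promoter. Without scaling it was at 0.905 (0.809 to 1.01) in Ni-W against UT cells, so that its direction there depended on the scaling. DSC3 had 9.35, 8.74 and 5.42 RPKM, and its fold in Ni-W against UT cells of 0.812 was 1.01 times that of the median promoter. DSC2 had 5.57, 5.21 and 4.11 RPKM, a window which it shares for the most part with the promoter of DSCAS (5.71, 5.29 and 4.09 RPKM). PKP2 had 6.22, 5.59 and 4.28 RPKM, and its folds of 0.964 against UT and 0.948 against Ni-E cells had intervals that held 1. PKP1 (0.528, 0.573 and 0.376 RPKM, from 45 to 86 reads) and DSG3 (0.335, 0.327 and 0.518 RPKM, from 38 to 62 reads) stayed under 1 RPKM in all 3 libraries. Both were under the minimum set for a comparison.

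The 4 desmosomal cadherins among the members lie in 1 cluster on chromosome 18, and H3K4me3 was seen at only part of it. DSC3 (chr18:30989365-31042815), DSC2 (chr18:31058840-31102522), DSG3 (chr18:31447741-31478702) and DSG2 (chr18:31498177-31549008) have these positions in GENCODE version 44 on GRCh38, the first pair on the minus and the second pair on the plus strand. The levels of DSC3, DSC2 and DSG2 were 4.11 RPKM or more in every condition. The promoters between them, of DSC1, DSG1, DSG4, DSG1-AS1 and DSG3, had 0.203 to 0.518 RPKM in the 3 libraries, and DSG2-AS1 had 0.253 to 0.308 RPKM. The start sites of DSG3 and DSG2, at 405 and 455 kb from that of DSC3, were neighbours with a level of 0.335 and 5.45 RPKM in UT cells. In RT4 cells DSG2 was the only 1 of the 7 cadherins of this cluster above 0.22 TPM in any library.

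**Figure D5:**
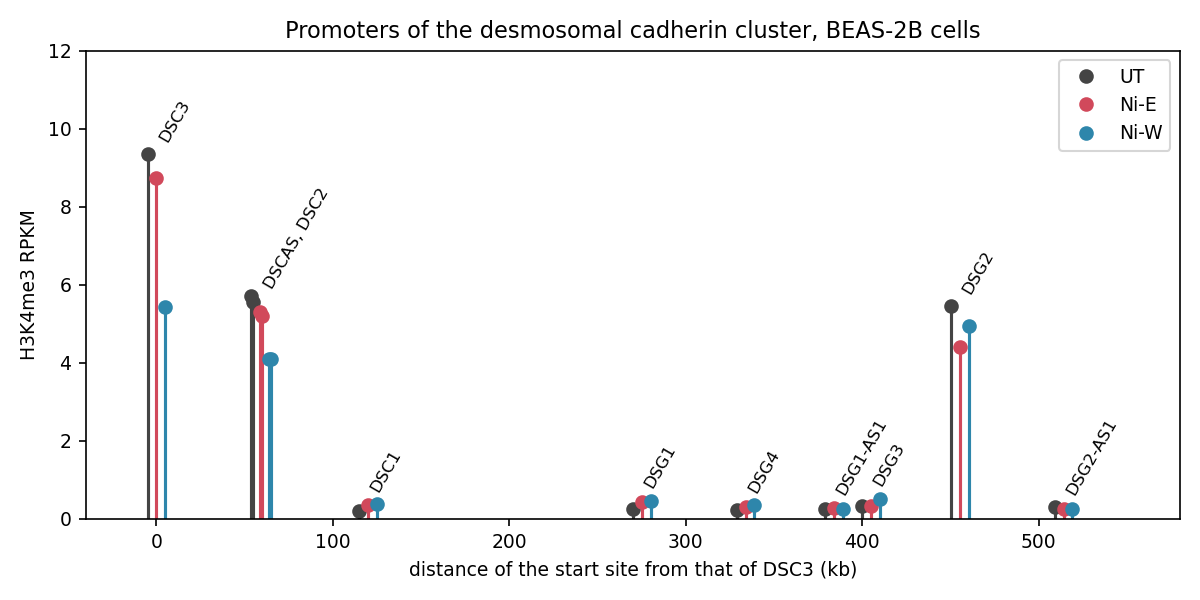
H3K4me3 level in RPKM at the promoters of the desmosomal cadherin cluster in BEAS-2B cells, by distance of the start site from that of DSC3 in kb. Stems of the 3 conditions are set apart by 5 kb to be seen. DSC3, DSC2 with its antisense transcript DSCAS, and DSG2 carried 4.09 RPKM or more, and the promoters between DSC2 and DSG2 carried at most 0.518 RPKM.

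The bases before the start sites of 3 cadherins and of PKP1 are shown, since they set a pair of promoters with H3K4me3 (DSG2, DSC3) beside a pair almost without it (DSG3, PKP1). They are the RefSeq promoters of GRCh38.p14, read 5′ to 3′ on the strand of the gene and ended before any annotated exon, with each CpG in capitals. DSG2 is on the plus strand at chr18:31497927-31498176, DSC3 on the minus strand at chr18:31042816-31042992, DSG3 on the plus strand at chr18:31447491-31447740 and PKP1 on the plus strand at chr1:201283256-201283451.
DSG2: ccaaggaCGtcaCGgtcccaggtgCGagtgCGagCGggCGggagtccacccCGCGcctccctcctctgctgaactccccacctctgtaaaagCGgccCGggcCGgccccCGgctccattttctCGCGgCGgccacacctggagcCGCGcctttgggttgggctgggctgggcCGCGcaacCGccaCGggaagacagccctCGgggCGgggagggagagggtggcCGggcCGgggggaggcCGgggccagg
DSC3: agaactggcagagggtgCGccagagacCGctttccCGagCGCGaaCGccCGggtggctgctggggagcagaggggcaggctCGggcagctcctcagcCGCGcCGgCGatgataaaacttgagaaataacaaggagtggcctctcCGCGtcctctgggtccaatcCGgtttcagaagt
DSG3: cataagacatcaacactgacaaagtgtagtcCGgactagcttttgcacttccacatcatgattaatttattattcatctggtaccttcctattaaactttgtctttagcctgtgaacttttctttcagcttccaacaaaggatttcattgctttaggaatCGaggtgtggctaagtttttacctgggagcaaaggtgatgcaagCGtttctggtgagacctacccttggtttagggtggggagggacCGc
PKP1: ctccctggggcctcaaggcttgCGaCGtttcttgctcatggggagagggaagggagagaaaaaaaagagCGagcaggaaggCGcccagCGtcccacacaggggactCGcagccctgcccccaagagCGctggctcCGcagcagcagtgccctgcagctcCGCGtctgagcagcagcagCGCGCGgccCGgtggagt

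CpG pairs are frequent in the DSG2 stretch (26 in 250 bases), in that of DSC3 (15 in 177 bases) and in that of PKP1 (14 in 196 bases), and rare in that of DSG3 (4 in 250 bases). In the full windows of 300 bases, which run from 250 bases before to 50 after the start, 7 of the 10 members had an entry, in 9 start sites, and PKP2, PKP3 and PPL had none. DSP had 37 CpG pairs, DSG2 36, DSC3 25, DSC2 22 and 15 at 2 start sites, JUP 19 and 23, PKP1 19 and DSG3 6, against a median of 14 over the 35116 promoters of the table. Over promoters with a single start in the table, the median H3K4me3 in UT cells was 0.238 RPKM with 0 to 6 CpG pairs, 2.31 RPKM with 7 to 21, 5.93 RPKM with 22 to 31 and 6.40 RPKM with 32 to 69. DSG3 at 0.335 RPKM and DSG2 at 5.45 RPKM were near the medians of their classes, and PKP1, with 19 CpG pairs and 0.528 RPKM, was below that of its class. DSC3, with 25 CpG pairs and 9.35 RPKM, was above that of its class.

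Motifs were searched by their letters on both strands of these windows, as a description. CACCTG, the E-box bound by SNAI and ZEB repressors, was present in 4 of the 9 windows (DSP, DSG2, and 1 of 2 start sites each of DSC2 and JUP), and in 20.6% of all promoters. The general E-box CANNTG, which includes CACCTG, was in 6 of the 9 windows and in 68.7% of promoters. The GC box GGGCGG was in 6 of the 9 windows, 8 times in that of DSP, and in 44.95% of promoters. ACGTG, the core of the site for hypoxia-inducible factors, was in 1 of the 9 windows, 3 times at 1 start site of DSC2, and in 21.4% of promoters. The grainyhead motif AACCNGTT (1.73% of promoters) and the AP-1 motif TGANTCA (7.71% of promoters) were in 0 of the 9 windows.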

How the data were processed

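RT4 RNA-Seq was analysed as 6 libraries (UT, Ni-E and Ni-W, 2 each) and BEAS-2B H3K4me3 ChIP-Seq as 3 libraries. The RT4 values that the authors deposited are RSEM's estimated counts, with TPM and FPKM beside them for each gene. The methods describe STAR alignment to hg19, RPKM from BioWardrobe and DESeq2, while the submitters' processing notes name GRCh38, hg38 and STAR. Which alignments gave the estimated counts is not given in the sources used here. The deposited FPKM values were not used. The ChIP-Seq values that the authors deposited are promoter RPKM from reads aligned to hg38 with BWA, without duplicates and with no calling of peaks.

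Estimated counts were rounded and tested with edgeR 4.0.16 (quasi-likelihood, TMM, filterByExpr, Benjamini-Hochberg over 14502 genes) in 1 model of the 3 groups. DSC3 and DSG3 did not pass the filter. Same-numbered libraries, 1 or 2 by the suffix in their titles, deviated together from their group means (r = 0.624, 0.732 and 0.665 for the 3 pairs of groups), so that the number was also fitted as a block. The study states biological replicates, and what the number marks is not stated. Alternatives used DESeq2 1.42.0 and limma 3.58.1 on log2(TPM + 1).

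RPKM values were whole multiples of a step (100% within 0.00051 RPKM), which gave the reads behind each value. Comparisons divided RPKM by the library median. Positions are from GENCODE version 44.

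The members and gene lists were chosen with earlier results of these data known. All members are named; from the other lists, genes that were called are named, except 1 that is not reported here, and of genes for other desmosome parts all are. Scripts were tested on simulated data. Intervals and floors cover counting error only. ChIP input libraries were not analysed here.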

Additional observations from a re-analysis of the deposited data

How the results depend on the processing

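The replicate block made the largest difference to the RT4 results. Desmosome members called in Ni-E against UT cells were 1 without the block and 3 with it (DSC2, PKP1 and PPL), and in Ni-W against Ni-E cells 0 and 2 (DSC2 and PPL). It changed no other call of a member. All genes called rose from 314 to 1833, from 87 to 1243 and from 0 to 655 in the 3 contrasts. The count for Ni-E against UT cells was 0 with at least 10 counts in every library and in the 3 fits of limma on TPM, where DSC2 was not tested or had log2 fold change -0.26 on the log2(TPM + 1) scale, and 0 to 1 when 1 library was left out. It stayed at 1 with RLE factors, DESeq2, no filter, only the groups compared, and no fold minimum.

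Signs of members that were not called turned under some settings. With limma, JUP in Ni-W against UT cells was 0.0230 (log2(TPM + 1), with and without the filter) and 0.0231 (log2(TPM + 0.1)), against -0.03. With the block PPL in Ni-W against UT cells was -0.0097 and DSP in Ni-W against Ni-E cells -0.0084. Leaving out 1 library gave ranges across 0 in Ni-E against UT cells for DSG2 (-0.078 to 0.52) and PKP2 (-0.67 to 0.33). In Ni-W against UT cells this held for DSP (-0.038 to 1.00, against 0.57 with all libraries), DSG2 (-0.32 to 0.88, against 0.40), PKP2 (-0.85 to 0.58), JUP (-0.13 to 0.072) and PPL (-0.45 to 0.36). In Ni-W against Ni-E cells it held for DSP (-0.54 to 0.48), DSG2 (-0.49 to 0.69), PKP2 (-0.58 to 0.78), PKP3 (-0.21 to 0.12) and JUP (-0.021 to 0.19). Such fits also leave the replicate numbers unbalanced between groups.

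For H3K4me3, members past the fold in Ni-E against UT cells (1, PPL) were 0 with a pseudocount of 1 RPKM or at 2-fold. In Ni-W against UT cells (2, PPL higher and PKP3 lower) they were 1 (PPL) with TMM factors, 0 with the pseudocount or at 2-fold, 3 with quantile normalization (DSG2 and PPL higher, PKP3 lower) and 3 with no minimum level (DSG3 added). They were another 2 without scaling (DSC3 and PKP3 lower) and with the median of promoters at 1 RPKM or more (DSG2 and PPL higher). In Ni-W against Ni-E cells (2, PPL higher and PKP3 lower) they were 4 without scaling (PPL higher, DSP, DSC3 and PKP3 lower), 4 with quantile normalization (DSG2, JUP and PPL higher, PKP3 lower), 3 with TMM factors and with the median of promoters at 1 RPKM or more (DSG2, JUP and PPL higher), 3 with no minimum level (DSG3 added), and 1 (PPL) with the pseudocount or at 2-fold. The direction of many members depended on the scaling. Of 8 members, it changed in Ni-E against UT cells for 3 to 4 (among DSC2, DSC3, PKP2 and PKP3) under the 4 other scalings. In Ni-W against UT cells it changed for 4 without scaling (DSP, DSC2, DSG2 and JUP), 1 with quantile normalization and 1 with TMM factors (PKP2), and 2 with the median of promoters at 1 RPKM or more (DSC3 and PKP2). Between Ni-W and Ni-E cells it changed for 0 without scaling, 3 with quantile normalization (DSP, DSC2 and PKP2), 2 with TMM factors (DSC2 and PKP2) and 4 with the median of promoters at 1 RPKM or more (DSP, DSC2, DSC3 and PKP2). Of members whose interval in the main scaling did not hold 0, the chromatin dynamic score, the difference of square roots of scaled levels, changed sign for DSG2 in Ni-W against UT cells without scaling (-0.113), and for DSP in Ni-W against Ni-E cells with quantile normalization (0.0218). With scaling to the median of the promoters at 1 RPKM or more, chosen after seeing the data, it changed sign for DSC3 in Ni-W against UT cells (0.0036) and for DSP (0.02004) and DSC3 (0.0215) in Ni-W against Ni-E cells. With 2 RT4 libraries and 1 ChIP library a condition, spread between cultures is little known or not known, and the counts of DSC2 limit its fold to a wide interval.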
